A study of Homo sapiens with 6 samples.

Results

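The SLC25 genes encode the mitochondrial carriers, the largest of the human solute carrier families. Most of them sit in the inner mitochondrial membrane and exchange nucleotides, phosphate, carboxylates, amino acids and cofactors between the matrix and the cytosol. They are built from tandem repeats of a paired helix, are encoded in the nucleus, and reach the inner membrane through a dedicated import route. Several connect mitochondria with glycolysis and cytosolic synthesis by moving citrate, malate, aspartate and glutamate, among them the carriers of the malate-aspartate shuttle.

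Members were the rows of the count table whose Ensembl identifier carries a protein-coding symbol that starts with SLC25A, with SLC25A28 and SLC25A37 set aside by the rule. This gave 43 of 23227 genes. SLC25A21, SLC25A27 and SLC25A31 are not analysed here. A filter on low counts kept 40 of the 43, and SLC25A2, SLC25A47 and SLC25A52 fell below it. The members lie on 18 chromosomes.

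The libraries came from MV4-11, an established human acute myeloid leukaemia line that expresses FLT3, CD33 and CD4 here. In 3 libraries ENO1, the glycolytic enzyme alpha-enolase, was knocked down by RNA interference, and the column names carry the name of 1 hairpin, sh2. The other 3 libraries are given as untreated in the labels and marked NC. Both groups share the genotype label WT, and whether the controls carried a control hairpin is not given.

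RNA sequencing gave 20044602 to 21670135 counts per knockdown library, against 24778469 to 26373960 per control library. ENO1 had 103, 101 and 102 CPM (counts scaled to a common library size) in the knockdown libraries and 3240, 3262 and 3285 CPM in the controls, so 3.13% of the control level was left. All 10 markers listed for this line were detected, of which 6 rose and 3 fell; MPO fell by 2.61 on the log2 scale. Of 5 lists of markers of other cell types, 3 had sums above 1 CPM, each higher in the knockdown libraries. Epithelial and fibroblast genes (5 of 6 in the table) summed to 45.1 to 48.3 CPM in the knockdown libraries and 18.5 to 20.1 CPM in the controls. The keratins KRT8 and KRT18 carried this sum and rose by 1.48 and 1.13 on the log2 scale, and the other 3 genes were under 1 CPM in every library. The megakaryocyte sum (2 of 4 genes) was 6.13 to 7.16 CPM in the knockdown libraries and 1.27 to 2.34 CPM in the controls, where ITGB3 rose by 3.42 on the log2 scale. The B cell sum (4 of 4 genes) was 6.17 to 7.02 CPM in the knockdown libraries and 3.45 to 4.67 CPM in the controls, where PAX5 and CD79A rose by 2.94 and 1.68 on the log2 scale. The T cell and erythroid sums were under 1 CPM in every library. Whether these genes bear on the carriers' values was not tested. Mitochondrially encoded genes took 9.27 to 9.69% of the counts in the knockdown libraries and 6.69 to 6.88% in the controls. Knockdown replicate 3 and control replicate 2 stood somewhat apart from the rest of their groups. The labels do not say whether libraries came from separate cultures, so p-values reflect library-to-library spread alone, possibly technical.

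The carrier family did not move as 1 block. Of the 40 tested members, 10 rose, 11 fell and 19 had no call in the knockdown libraries (edgeR quasi-likelihood test, Benjamini-Hochberg adjusted p under 0.05). The share called was 52.5%, against 59.9% of the 14635 genes tested. By direction, 25.0% of the members were higher, against 29.4% of all genes, and 27.5% were lower, against 30.5% of all genes. Their median log2 fold change was -0.0059, beside 0.0043 over all tested genes, and the median size of the difference was 0.21 on the log2 scale, beside 0.30 over all tested genes. The groups did not overlap for 22 of the 40 members (55.0%), beside 64.3% of all tested genes. Of these, 10 lay higher and 12 lower in the knockdown libraries, where 31.8% and 32.5% of all tested genes did. These shares are near or under the background, so the counts alone set the family apart in neither direction.

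Of the 40 tested members, SLC25A48, SLC25A18, SLC25A35 and SLC25A42 (4) were called and at least 1.5-fold higher, where 12.3% of all tested genes were. Another 4, SLC25A23, SLC25A32, SLC25A39 and SLC25A43, were called and at least 1.5-fold lower, where 8.77% of all tested genes were. Both counts are near the background shares. The call held whichever single library was left out for 6 of the 10 members that rose and for 10 of the 11 that fell. Bulk libraries cannot tell fewer cells that express a gene from less RNA per cell.

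**Figure D1:**
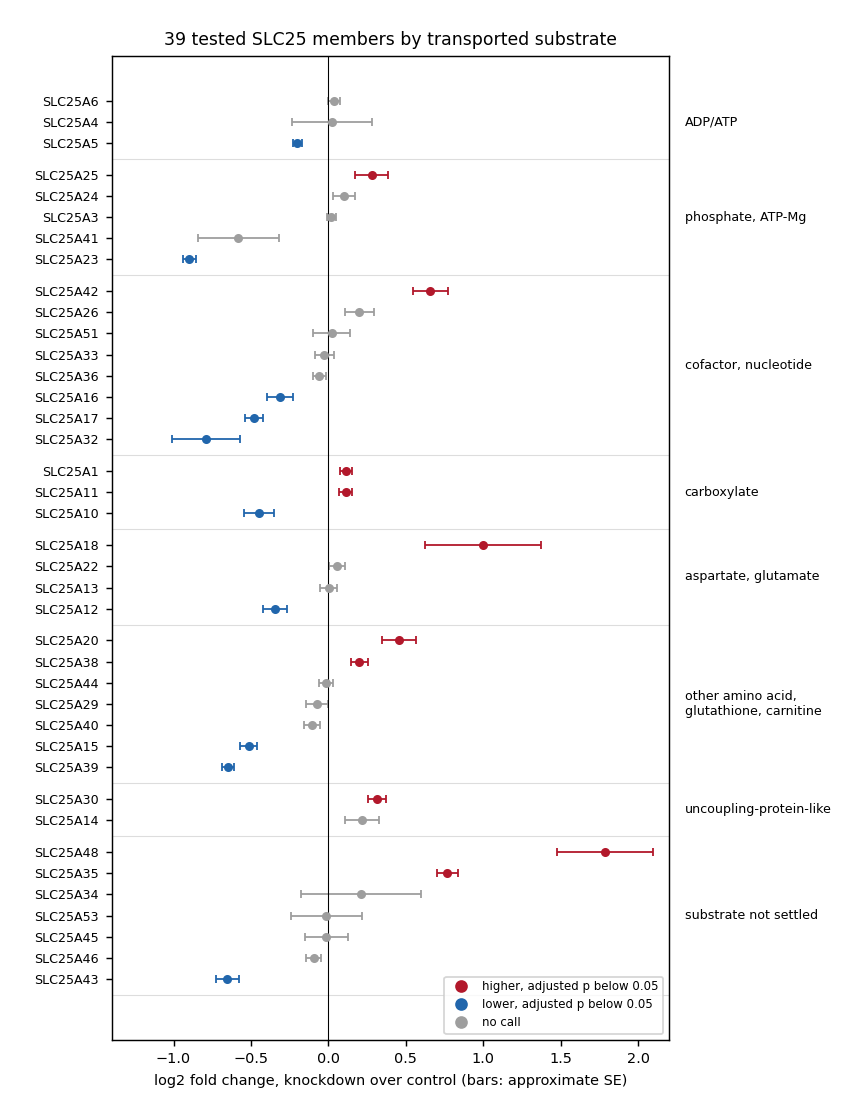
Log2 fold change of knockdown over control for 39 of the 40 tested SLC25 members (points, with bars for the approximate standard error), grouped by transported substrate; red marks the 10 that rose, blue 10 of the 11 that fell and grey the 19 with no call. All 3 carboxylate carriers were called, the other groups hold both called and uncalled genes, and the values run from -0.90 for SLC25A23 to 1.79 for SLC25A48.

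In CPM per kilobase of exon, which allows levels of genes of different length to be set side by side, a pair of ADP/ATP carriers led the family. SLC25A6 and SLC25A5 made up 57.9 to 59.0% of the summed member level per kilobase in the knockdown libraries and 57.2 to 58.1% in the controls. The summed level of all members was 1033 ± 34.7 CPM per kilobase in the knockdown cells and 1100.0 ± 10.4 in the controls (SD, n = 3 each). These sums did not overlap, at 995 to 1062 in the knockdown libraries and 1088 to 1109 in the controls, nor did the summed CPM, at 3030 to 3176 in the knockdown libraries and 3275 to 3300.4 in the controls. As a share of all counts, members took 0.307 to 0.324% in the knockdown libraries and 0.322 to 0.325% in the controls, so these ranges overlapped. As a share of the counts of genes outside the mitochondrial genome the ranges also overlapped, with 0.340 to 0.357% in the knockdown libraries and 0.345 to 0.348% in the controls.

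**Figure D2:**
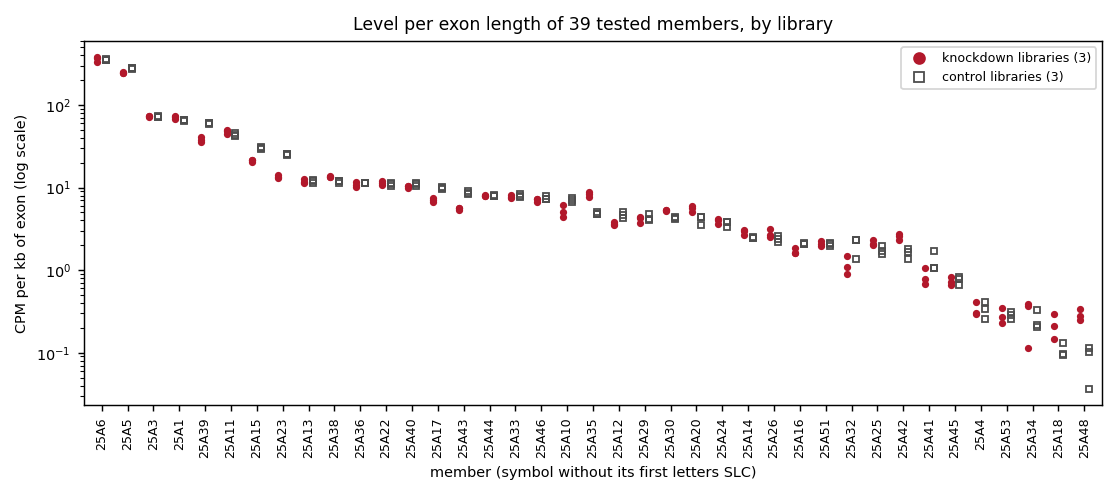
Level of 39 of the 40 tested members per library, in CPM per kilobase of exon on a log axis, ordered by the control mean; filled circles are the 3 knockdown and open squares the 3 control libraries. SLC25A6 and SLC25A5 stand above the rest, and SLC25A23, SLC25A39 and SLC25A43 show knockdown points below all control points.

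The promoters of 3 members that moved are shown as examples. They were picked from the larger rises and falls because they differ in a common promoter element. Each sequence is the 250 bases before the RefSeq transcription start on GRCh38.p14, read 5′ to 3′ on the gene's strand. Capitals mark the CCAAT box, found as CCAAT on either strand. SLC25A42 (chr19:19063744-19063993, plus strand) rose. SLC25A23 (chr19:6459793-6460042, minus strand) and SLC25A39 (chr17:44324824-44325073, minus strand) fell.
SLC25A42: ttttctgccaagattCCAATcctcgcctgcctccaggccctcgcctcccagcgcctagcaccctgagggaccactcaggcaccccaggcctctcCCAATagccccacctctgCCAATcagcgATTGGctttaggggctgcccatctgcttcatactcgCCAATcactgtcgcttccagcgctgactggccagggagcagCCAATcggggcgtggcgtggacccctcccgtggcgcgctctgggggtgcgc
SLC25A23: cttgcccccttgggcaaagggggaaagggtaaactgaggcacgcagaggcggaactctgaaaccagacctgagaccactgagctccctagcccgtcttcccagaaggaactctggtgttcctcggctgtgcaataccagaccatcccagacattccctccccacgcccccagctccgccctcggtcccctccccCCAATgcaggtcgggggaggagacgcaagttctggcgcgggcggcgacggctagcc
SLC25A39: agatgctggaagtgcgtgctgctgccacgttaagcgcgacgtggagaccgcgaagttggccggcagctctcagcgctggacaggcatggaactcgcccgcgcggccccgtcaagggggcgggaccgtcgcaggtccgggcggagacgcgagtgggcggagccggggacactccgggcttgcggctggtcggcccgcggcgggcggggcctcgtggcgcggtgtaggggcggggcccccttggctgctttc

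SLC25A42 held 6 CCAAT matches, between 51 and 235 bases before the start, 1 of them on the opposite strand. SLC25A23 held 1, at 56 bases before the start, and SLC25A39 held 0. Among 27305 genes with a RefSeq promoter, 34 (0.125%) had at least 6 such matches in the same window. In the whole 300-base window, which adds 50 bases after the start, 39.7% of these genes and 42.5% of those tested had at least 1 match. So did 18 of the 36 members with a promoter in the table, 3 of 8 that rose, 3 of 8 that fell and 12 of 18 with no call. SLC25A48 and SLC25A18, which rose by more than SLC25A42, held 0 matches in that window. The 3 promoters shown therefore do not stand for the members that rose or fell. The matches are letters in a window, and no binding was measured.

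Among the ADP/ATP carriers, which swap matrix ATP for cytosolic ADP, SLC25A5 (adenine nucleotide translocase ANT2; GRCh38 chromosome X) fell and SLC25A6 (ANT3) did not pass the test. SLC25A5 had 372, 363 and 362 CPM in the knockdown libraries and 413, 425 and 425 CPM in the controls. The groups did not overlap, and the log2 fold change was -0.20 (SE 0.03, edgeR adjusted p = 8.41e-07). SLC25A6 had 819, 807 and 725 CPM in the knockdown libraries and 751, 762 and 781 CPM in the controls. Knockdown replicate 3 was the lowest of its 6 values and the other knockdown libraries the highest. With a log2 fold change of 0.04 SLC25A6 was not called (edgeR adjusted p = 0.425), but without knockdown replicate 3 it was, at 0.09 (edgeR adjusted p = 0.000645). SLC25A4, the heart and muscle form ANT1, was at 1.64 ± 0.33 CPM in the knockdown cells and 1.61 ± 0.37 CPM in the controls (SD, n = 3 each) and had no call.

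The phosphate carrier SLC25A3, which supplies phosphate for ATP synthesis, followed SLC25A6 and SLC25A5 in level per kilobase. It had 651, 643 and 654 CPM in the knockdown libraries, against 639, 652 and 631 CPM in the controls. These values overlapped, and SLC25A3 had no call (edgeR adjusted p = 0.565), though with library-size scaling it passed at a log2 fold change of 0.07 (edgeR adjusted p = 0.0198).

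The ATP-Mg/phosphate carriers, which set the size of the matrix adenine nucleotide pool, held the member with the lowest fold change. SLC25A23 (ENSG00000125648) had 69.0, 64.3 and 64.7 CPM in the knockdown libraries and 121, 124 and 124 CPM in the controls. All knockdown libraries were close to 53.7% of the control level as fitted, a log2 fold change of -0.90 (SE 0.04, edgeR adjusted p = 1.30e-16). Its neighbour and paralog SLC25A41, on the same strand of chromosome 19 with a gap of 2300 bases, was at 1.40 ± 0.33 CPM in the knockdown cells and 2.10 ± 0.60 CPM in the controls (SD, n = 3 each). SLC25A41 had a log2 fold change of -0.58 and did not pass (edgeR adjusted p = 0.057), though it did without control replicate 1, control replicate 3 or knockdown replicate 3 (edgeR adjusted p = 0.0208 to 0.0476). SLC25A24 had no call, and SLC25A25 rose by 0.28 on the log2 scale (edgeR adjusted p = 0.0267). The SLC25A25 call was lost when control replicate 2, control replicate 3 or knockdown replicate 1 was left out, with an adjusted p up to 0.137, and in DESeq2 (adjusted p = 0.061). SLC25A25 had 673 counts over the knockdown libraries and 649 over the controls. It shares 13.5% of its exon bases with SLC25A25-AS1 on the opposite strand, which had 853 and 914 counts and no call. The strand setting of the counts is not given.

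Carboxylate carriers link the citric acid cycle to cytosolic lipid synthesis and redox shuttles. SLC25A1, the citrate carrier that exports citrate for fatty acid and sterol synthesis, had 154, 150 and 143 CPM in the knockdown libraries and 138, 140 and 135 CPM in the controls. Its groups did not overlap, and the log2 fold change was 0.11 (SE 0.04, edgeR adjusted p = 0.00954). The call was lost without control replicate 3 (adjusted p = 0.06) and without knockdown replicate 1 (adjusted p = 0.0736). ACLY, the cytosolic enzyme that splits exported citrate, fell to 314 ± 2.96 CPM in the knockdown cells, against 517 ± 5.31 CPM in the controls (SD, n = 3 each), a log2 fold change of -0.72.

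SLC25A11, the oxoglutarate-malate carrier, rose by 0.11 on the log2 scale (edgeR adjusted p = 0.0217), with overlapping groups. Its call was lost without control replicate 1 or 2 or knockdown replicate 1 or 2, with an adjusted p of 0.0835 to 0.140. SLC25A11 shares 9.14% of its exon bases with RNF167 on the opposite strand, and the strand setting of the counts is not given. The dicarboxylate carrier SLC25A10 was at 13.6 ± 2.25 CPM in the knockdown cells and 18.6 ± 1.05 CPM in the controls (SD, n = 3 each), a log2 fold change of -0.45 (edgeR adjusted p = 0.000251). It is uncertain, since 41.2% of its 50-base stretches also occur in an overlapping gene on the same strand, AC139530.2. The Ensembl identifier of AC139530.2 had no row among the counts.

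Of the aspartate-glutamate carriers of the malate-aspartate shuttle, SLC25A12 (aralar) fell and SLC25A13 (citrin) had no call. SLC25A12 was at 18.9 ± 0.81 CPM in the knockdown cells and 23.9 ± 1.99 CPM in the controls (SD, n = 3 each), a log2 fold change of -0.34 (edgeR adjusted p = 0.00032). SLC25A13 was at 44.4 ± 2.86 CPM in the knockdown cells and 44.4 ± 1.81 CPM in the controls (SD, n = 3 each). Among the enzymes of that shuttle GOT1 fell by 0.45 and MDH1 rose by 0.20 on the log2 scale, and MDH2 and GOT2 had no call.

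The glutamate carrier SLC25A22 had no call. SLC25A18, its paralog, had 0.697, 0.998 and 1.38 CPM in the knockdown libraries and 0.617, 0.451 and 0.451 CPM in the controls, from 15, 22 and 28 counts and 16, 11 and 11 counts. Its groups did not overlap, and the log2 fold change was 1.00 (SE 0.37, edgeR adjusted p = 0.0233). This call was lost when control replicate 2 or 3 or knockdown replicate 2 or 3 was dropped (adjusted p 0.0522 to 0.160), and in DESeq2 (adjusted p = 0.0528).

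Amino acid and glutathione carriers held a pair of well expressed genes that fell. SLC25A39 (ENSG00000013306), needed for glutathione entry into mitochondria, had 145, 134 and 126 CPM in the knockdown libraries and 214, 210 and 211 CPM in the controls. The groups stood far apart, with 63.8% of the control level left as fitted, a log2 fold change of -0.65 (SE 0.04, edgeR adjusted p = 9.68e-14). Its paralog SLC25A40 was at 51.6 ± 1.70 CPM in the knockdown cells and 55.5 ± 1.79 CPM in the controls (SD, n = 3 each) and did not pass (edgeR adjusted p = 0.0658), though it did without knockdown replicate 3 (edgeR adjusted p = 0.0304). GCLC, the catalytic subunit of the first enzyme of glutathione synthesis, rose by 0.74 on the log2 scale.

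SLC25A15, the ornithine carrier of the urea cycle, had 39.6, 37.0 and 39.8 CPM in the knockdown libraries and 53.8, 57.3 and 55.4 CPM in the controls. The groups did not overlap, at a log2 fold change of -0.52 (SE 0.05, edgeR adjusted p = 2.11e-09). OAT, the matrix enzyme that converts ornithine, fell by 0.63 on the log2 scale. SLC25A2, the other ornithine carrier, had 2 counts over the knockdown libraries and 0 over the controls, at or under the 3 counts taken as the floor, and no fold is given.

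SLC25A20, which carries acylcarnitines into the matrix for fatty acid oxidation, had 11.9, 11.3 and 9.98 CPM in the knockdown libraries and 7.02, 8.65 and 8.62 CPM in the controls. All knockdown values were above all control values, at a log2 fold change of 0.45 (SE 0.11, edgeR adjusted p = 0.000853). CPT1A and CPT2, the carnitine palmitoyltransferases on either side of this step, had no call. SLC25A38, which is needed for glycine use in haem synthesis, rose by 0.20 on the log2 scale (edgeR adjusted p = 0.00333). The basic amino acid carrier SLC25A29 and the branched-chain amino acid carrier SLC25A44 had no call.

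Of 9 tested cofactor and nucleotide carriers, 1 rose, 4 fell and 4 had no call, with a median log2 fold change of -0.06. Over all tested genes 29.4% rose and 30.5% fell. SLC25A42, which brings coenzyme A into the matrix, had 12.2, 11.8 and 10.6 CPM in the knockdown libraries and 7.48, 6.19 and 8.25 CPM in the controls. The lowest knockdown library was above the highest control, and the log2 fold change was 0.66 (SE 0.11, edgeR adjusted p = 1.28e-05). SLC25A16, also linked to coenzyme A in mitochondria, fell by 0.31 on the log2 scale (edgeR adjusted p = 0.00265).

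SLC25A17, a peroxisomal member that carries coenzyme A and related cofactors, had 29.6, 28.4 and 26.9 CPM in the knockdown libraries and 40.2, 39.9 and 38.4 CPM in the controls. These groups were also apart, at a log2 fold change of -0.48 (SE 0.06, edgeR adjusted p = 6.25e-08).

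SLC25A32, which brings folate into mitochondria, had 3.25, 5.35 and 4.03 CPM in the knockdown libraries and 8.41, 5.04 and 8.41 CPM in the controls. Control replicate 2 lay within the knockdown range, so the groups overlapped. Its log2 fold change of -0.79 (SE 0.22) passed the test (edgeR adjusted p = 0.00769), but not without knockdown replicate 3 (edgeR adjusted p = 0.106). SLC25A32 is uncertain, since 66.7% of its 50-base stretches also occur in an overlapping gene on the same strand, AC012213.5, and 11.1% of its exon bases overlap DCAF13 on the opposite strand. The Ensembl identifier of AC012213.5 had no row among the counts. The mitochondrial folate enzymes SHMT2 and MTHFD2 fell by 1.13 and by 0.20 on the log2 scale.

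The S-adenosylmethionine carrier SLC25A26, the pyrimidine nucleotide carriers SLC25A33 and SLC25A36 and the NAD carrier SLC25A51 had no call, with log2 fold changes of 0.20, -0.03, -0.06 and 0.02. SLC25A36 passed without knockdown replicate 3, at a log2 fold change of -0.11 (edgeR adjusted p = 0.00603), and SLC25A26 without control replicate 3 or knockdown replicate 2 (edgeR adjusted p = 0.0407 and 0.0269), and also with upper-quartile or library-size scaling or a 5 CPM filter (edgeR adjusted p = 0.0237 to 0.0324). SLC25A33 and SLC25A51 are uncertain, with 20.7% and 15.6% of their 50-base stretches shared with other genes. SLC25A52, a close copy of SLC25A51 that shares 29.3%, had 4 counts over the knockdown libraries and 3 over the controls.

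Members related to the uncoupling proteins were at moderate levels. SLC25A30 had 36.5, 35.8 and 36.1 CPM in the knockdown libraries and 30.1, 28.2 and 29.01 CPM in the controls. Its groups did not overlap, at a log2 fold change of 0.31 (SE 0.06, edgeR adjusted p = 4.12e-05). It shares 1.44% of its exon bases with the antisense gene TPT1-AS1, which rose by 1.11 on the log2 scale. SLC25A14 was at 8.69 ± 0.52 CPM in the knockdown cells and 7.48 ± 0.15 CPM in the controls (SD, n = 3 each) and did not pass (edgeR adjusted p = 0.0876), though it did with upper-quartile or library-size scaling or a 5 CPM filter (edgeR adjusted p = 0.0345 to 0.0446). The classical uncoupling protein gene UCP2, a carrier with another symbol, fell to 157 ± 8.34 CPM in the knockdown cells, against 227 ± 2.65 CPM in the controls (SD, n = 3 each).

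The members listed here as having no settled substrate held both the highest fold change and a clear fall. SLC25A48 (chromosome 5, plus strand) had 2.09, 2.86 and 2.31 CPM in the knockdown libraries and 0.309, 0.861 and 0.944 CPM in the controls, from 155 counts over the knockdown libraries and 52 over the controls. Every control library was under 1 CPM and every knockdown library above 2 CPM. The log2 fold change was 1.79 (SE 0.31, edgeR adjusted p = 1.52e-05). SLC25A48 shares 7.67% of its exon bases with the non-coding gene AC034206.1 on the same strand, whose Ensembl identifier also had a row and rose by 1.39 on the log2 scale. AC034206.1 had more counts than SLC25A48, with 454 over the knockdown libraries and 202 over the controls. AC114296.1, also on the same strand, shares 3.11% of the exon bases and had 29 counts and 1 count. How far reads of these genes entered the SLC25A48 counts was not tested.

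SLC25A35 had 32.9, 34.5 and 30.1 CPM in the knockdown libraries and 19.5, 18.9 and 18.9 CPM in the controls. The groups stood well apart, at a log2 fold change of 0.77 (SE 0.07, edgeR adjusted p = 1.81e-10). SLC25A35 shares 33.2% of its exon bases with RANGRF on the opposite strand, which was at 1.85 CPM in the knockdown cells and 1.81 CPM in the controls and had no call.

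SLC25A43 had 16.5, 17.4 and 17.8 CPM in the knockdown libraries and 28.6, 26.5 and 26.1 CPM in the controls. Again the groups did not overlap, at a log2 fold change of -0.65 (SE 0.07, edgeR adjusted p = 1.05e-08). It lies on the plus strand of chromosome X, 13922 bases from SLC25A5, which also fell. SLC25A46, an outer membrane member with a role in mitochondrial shape, and SLC25A34, SLC25A45 and SLC25A53 had no call. SLC25A46 passed without knockdown replicate 3, at a log2 fold change of -0.11 (edgeR adjusted p = 0.044). SLC25A47, a gene known from liver, had 6 counts over the knockdown libraries and 2 over the controls.

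**Figure D3:**
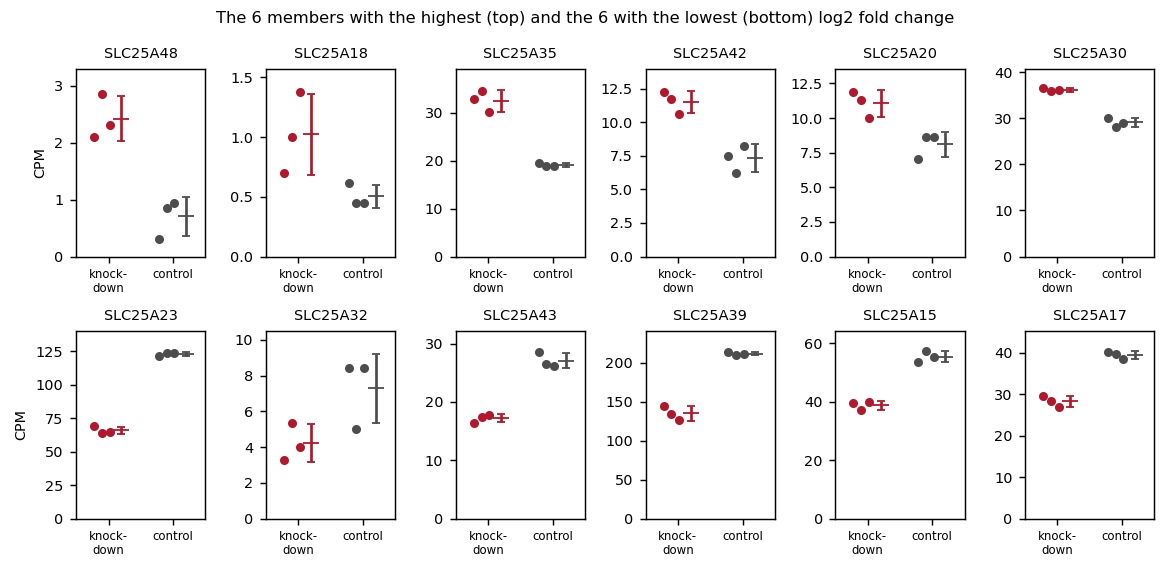
CPM per library (points) with mean and SD (bars, n = 3) for the 6 called members with the highest log2 fold change (top) and the 6 with the lowest (bottom), knockdown left of control, axes from 0. Only for SLC25A32 do the points of the groups overlap, and SLC25A48 and SLC25A18 lie below 3 CPM in every library.

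The balance between related carriers was read from the ratio of their counts within each library, which does not depend on the scaling between libraries. Of 9 pairs, 6 had all knockdown ratios on one side of all control ratios and reached the smallest p that an exact two-sided permutation test of 3 against 3 allows, 0.1, which is 0.15 after Benjamini-Hochberg adjustment over the pairs. This test cannot pass 0.05 with 3 libraries a group. Taken singly, 64.3% of all tested genes had groups that did not overlap. Ratios of other gene pairs were not computed, so the count of pairs does not set the carriers apart. The ratio of SLC25A5 to SLC25A6 was 0.454, 0.450 and 0.499 in the knockdown libraries and 0.549, 0.558 and 0.544 in the controls. SLC25A23 had 2.52, 2.64 and 2.33 times the counts of SLC25A24 in the knockdown libraries and 4.73, 5.47 and 4.80 times in the controls. This was the largest difference in size among the pairs, at -1.001 on the log2 scale.

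SLC25A39 had 2.76, 2.70 and 2.40 times the counts of SLC25A40 in the knockdown libraries and 3.75, 3.74 and 3.95 times in the controls. The ratio of SLC25A12 to SLC25A13 was 0.418, 0.441 and 0.415 in the knockdown libraries and 0.529, 0.567 and 0.520 in the controls. SLC25A10 to SLC25A11 and SLC25A18 to SLC25A22 were the other pairs whose groups did not overlap, with log2 differences of -0.57 and 0.92. The ratios of SLC25A33 to SLC25A36, SLC25A24 to SLC25A25 and SLC25A4 to SLC25A5 overlapped between the groups.

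**Figure D4:**
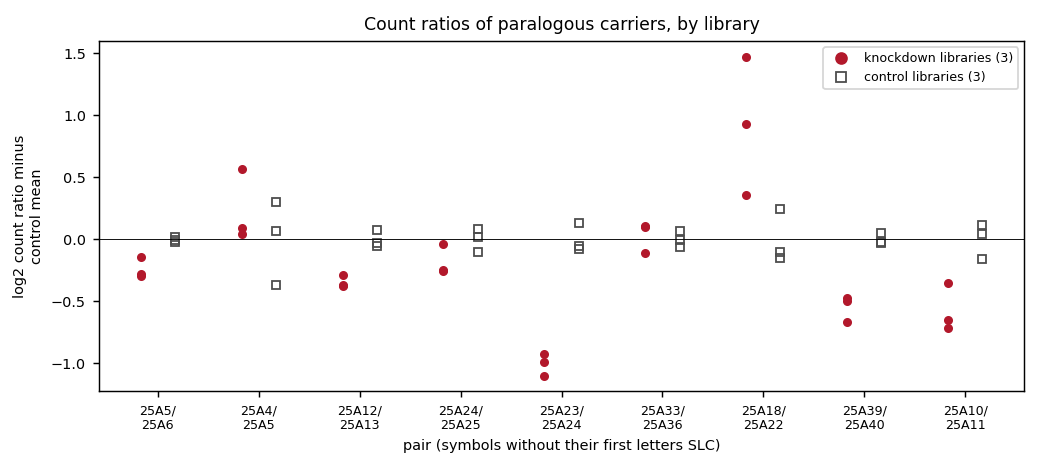
Log2 ratio of the counts of paralogous carriers in each library, with the control mean of the pair set to 0; filled circles are the 3 knockdown and open squares the 3 control libraries. The SLC25A23/SLC25A24 ratio lies farthest below its control mean in the knockdown libraries, and SLC25A33/SLC25A36 lies around 0 in both groups.

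Genes that act beside the carriers were read from lists chosen by function, with earlier results of these data known. Their counts are therefore descriptions. Carrier proteins enter through the outer membrane receptor TOMM70, small chaperones of the intermembrane space and the TIMM22 insertase. The list for this route also holds TOMM20, TOMM22, TOMM40, TOMM5 and TOMM7 of the outer membrane. Of 15 tested genes of this route, 12 fell, none rose and 3 had no call, with a median log2 fold change of -0.31, beside 0.0043 over all tested genes, of which 30.5% were lower. TIMM22 was at 24.8 ± 1.53 CPM in the knockdown cells and 33.7 ± 0.19 CPM in the controls (SD, n = 3 each), a log2 fold change of -0.44 (edgeR adjusted p = 8.01e-07). The chaperones TIMM9 and TIMM13 had log2 fold changes of -0.47 and -0.45, TOMM70 of -0.22 and the general import receptor TOMM20 of -0.34. AGK, a lipid kinase that is also a subunit of the TIMM22 complex, had a log2 fold change of -0.99 from a low level of 0.870 ± 0.28 CPM in the knockdown cells and 1.74 ± 0.19 CPM in the controls (SD, n = 3 each).

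Of 16 genes of other inner membrane transport, 4 rose, 7 fell and 5 had no call, beside 29.4% higher and 30.5% lower over all tested genes, with a median of -0.07. ABCB10, an ABC transporter of the inner membrane, was at 102 ± 3.71 CPM in the knockdown cells and 188 ± 3.99 CPM in the controls (SD, n = 3 each), a log2 fold change of -0.88 (edgeR adjusted p = 1.47e-17). The serine carrier SFXN1 had a log2 fold change of -0.73. LETM1, a cation exchanger, and MPC2, a subunit of the pyruvate carrier, rose by 0.29 and 0.27, while MPC1 had no call.

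Among the outer membrane channels VDAC1 fell to 403 ± 10.7 CPM in the knockdown cells, against 526 ± 9.46 CPM in the controls (SD, n = 3 each), and VDAC2 and VDAC3 had no call. Of the 4 tested carriers with other symbols, UCP3 and MTCH1 rose, UCP2 fell and MTCH2 had no call. Of 20 enzymes that make or use carrier substrates, 6 rose, 8 fell and 6 had no call, with a median of -0.02. These counts are near the 29.4% higher and 30.5% lower of all tested genes.

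**Figure D5:**
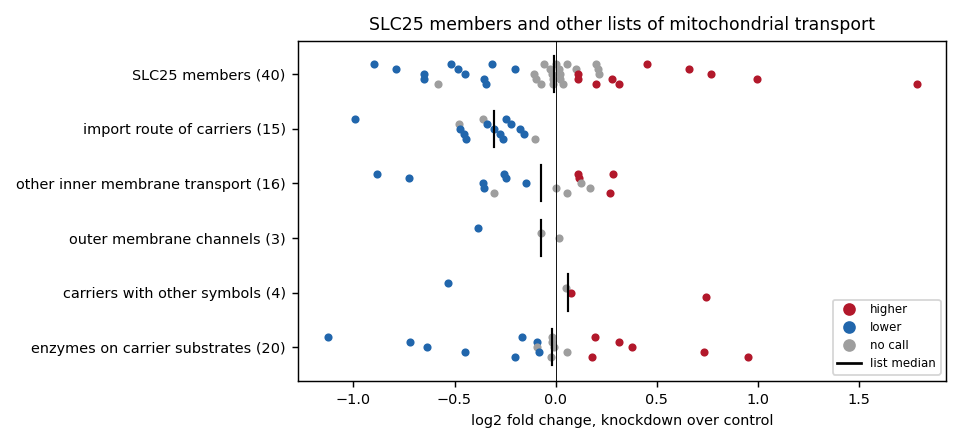
Log2 fold change of knockdown over control for the 40 tested SLC25 members and for 5 lists of other genes (number tested in brackets); red points rose, blue points fell, grey points had no call, and the black line is the list median. All 15 genes of the import route lie below 0, while the SLC25 members spread to both sides around a median of -0.0059.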

How the data were processed

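RNA sequencing of total RNA was done on 6 MV4-11 libraries prepared with a TruSeq RNA kit, per the labels' protocols. HISAT2 2.0.5 and hg38 were used, per the submitters' processing notes. How reads were counted, with which annotation and on which strand, is not given in the sources used here. Whole-number counts per Ensembl gene, not normalized, were deposited by the authors as 1 table, and columns were matched to samples by group and replicate number in the titles. Symbols came from a table of gene names (23211 of 23227 matched). Positions, exon lengths and overlaps came from GENCODE release 29 on GRCh38, the build the submitters name as hg38. Genes with more than 10% of their 50-base stretches in transcripts of other genes are called uncertain.

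The test was edgeR's robust quasi-likelihood F test (version 4.0.16, R 4.3.3) after filterByExpr and TMM scaling. Benjamini-Hochberg adjustment ran over all 14635 genes that passed the filter, with a threshold of 0.05. CPM use TMM-scaled library sizes. The standard error (SE) is approximate, taken as |log2 fold change| / √F. The procedure was also run on simulated counts in which only a small part of the genes changed. In these data 59.9% of tested genes were called, so that run does not test the scaling or error rate here. Libraries of 1 group differed by more than sampling noise (chi-square per degree of freedom 2.06 to 3.95, against 64.3 to 69.3 between groups).

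The members, lists and tests were chosen with earlier results of these data known. Values per library are given for the 5 members highest per kilobase and for the 6 highest and 6 lowest log2 fold changes among called members. Other members are given by their role. The values of 1 tested member and 1 listed enzyme are not reported here, though both stay in the fit and in the counts. List genes with values were picked as examples after their values were seen, as were the promoters shown and their motifs. Alternatives were RLE, upper-quartile and library-size scaling, TMM without mitochondrially encoded genes, DESeq2 1.42.0, limma-voom (limma 3.58.1), keeping all genes, keeping those above 5 CPM in at least 3 libraries, the replicate number as a block and each library left out in turn. Leaving out control replicate 2 and knockdown replicate 3 together was added after the data were seen.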

Additional observations from a re-analysis of the deposited data

How the results depend on the processing

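The number of members called stayed within 1.5 times of 10 higher and 11 lower under every alternative run, at 7 to 13 higher and 11 to 14 lower. RLE scaling, TMM without mitochondrially encoded genes and the replicate block changed no member's call or direction (10 higher and 11 lower with the block). Same-numbered libraries did not deviate together (correlations of 0.0029, 0.0092 and -0.0225). With 3 libraries a group, this check cannot exclude that the numbers pair them. Of the calls, 6 rises and 10 falls held under all alternatives. Those of SLC25A1, SLC25A11, SLC25A18, SLC25A25 and SLC25A32 did not. Without filter SLC25A11 and SLC25A25 were lost, and without control replicate 2 and knockdown replicate 3 together SLC25A18 and SLC25A25. Calls were gained by SLC25A14 and SLC25A26 with upper-quartile scaling, library-size scaling or a 5 CPM filter, by SLC25A3 with library-size scaling, and by SLC25A40, SLC25A41 and SLC25A46 without filter. Without the 2 libraries together, 3 calls were also gained. Directions turned only for members with no call. With upper-quartile scaling SLC25A33, SLC25A44, SLC25A45 and SLC25A53 had log2 fold changes of 0.012, 0.023, 0.025 and 0.025, with library-size scaling 0.027, 0.038, 0.0404 and 0.0402, and with a 5 CPM filter the first 3 had 0.012, 0.023 and 0.026. Without filter SLC25A3, SLC25A4, SLC25A13 and SLC25A51 had -0.0044, -0.0011, -0.022 and -0.0034. In limma-voom SLC25A13 had -0.0011. Without the 2 libraries together SLC25A13, SLC25A34, SLC25A45 and SLC25A53 had -0.027, -0.12, 0.13 and 0.016. Leaving out 1 library gave -0.15 to 0.19 for SLC25A4, -0.054 to 0.038 for SLC25A13, -0.065 to 0.0014 for SLC25A33, -0.075 to 0.60 for SLC25A34, -0.11 to 0.059 for SLC25A45, -0.034 to 0.058 for SLC25A51 and -0.19 to 0.11 for SLC25A53. The cause was not tested. The order of members per kilobase changed little with the longest transcript as length (Spearman's rho 0.993 across genes).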

Other observations

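Other promoter motifs were counted in the 300-base RefSeq windows of the 36 members that have one, on both strands. The E-box CACGTG was in the windows of 8 members, 1 of 8 that rose, 0 of 8 that fell and 7 of 18 with no call, beside 8.78% of all 27305 genes with a promoter and 12.5% of those tested. Those 8 were SLC25A13, SLC25A22, SLC25A26, SLC25A33, SLC25A36, SLC25A38, SLC25A46 and SLC25A51. The ETS motif CCGGAAGT was in 4 members (11.1%), beside 4.95% of all genes and 10.1% of those tested. The NRF1 site was in 4 members (11.1%), beside 6.98% of all genes and 13.5% of those tested. TGATGNAA, the core of the element read by C/EBP and ATF factors, was in 1 member, SLC25A11, beside 4.46% of all genes and 2.56% of those tested. These counts are descriptions of letters in a window, chosen with the results known.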
